A study of Mus musculus with 8 samples.

Results

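Transcripts of 8 genes that build ribosomes or return them to use were examined in sorted mouse myeloid cells: Nop56, Nop58, Nop10, Wdr36, Tsr1, Ddx21, Nop16 and Abce1. They were found by gene symbol among the rows of the authors' deposited table of probesets that differed between the CD38high and the CD38low fraction. That table has 498 of the 23332 probesets of the arrays and names 482 genes. The 8 genes had 9 rows there, 2 of them for Wdr36, which is represented by the row with the higher mean. Since the authors put a probeset in the table for its difference between the fractions, these genes were selected on the CD38high minus CD38low difference, and that difference is given below as a description. Where calls of the 8 genes in a fit across all probesets are counted, the count follows from the selection and is no test of these genes.

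The cells were splenocytes sorted as CD11b+Gr1+, markers by which myeloid-derived suppressor cells are recognised in the mouse, from L2-Cre;p120f/f mice of 12 months on a mixed C57BL/6x129 background, all bearing esophageal tumors. L2-Cre places Cre under a viral promoter used for squamous epithelium of the mouth and esophagus, and p120f/f is the floxed gene of p120-catenin. The genotype, the tumor and the age were common to both groups, and no tumor-free mice or other genotypes were analysed here. CD38high and CD38low cells were sorted from the same spleen preparation, for 3 single mice (mouse 1, mouse 2 and mouse 3) and for 1 pool of splenocytes from 3 mice, which gave 4 arrays per fraction and 8 in all. The labels leave unsaid whether mice 1 to 3 were among those pooled. The log2 expression of Cd38, which checks the sort, was 12.25 to 12.60 in the CD38high and 9.63 to 10.90 in the CD38low arrays. Of the genes for the CD11b and Gr1 antigens, Itgam and Ly6g are not among the named genes and were not analysed here.

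A ribosome is assembled mostly in the nucleolus, where RNA polymerase I transcribes the precursor of the ribosomal RNAs. Small nucleolar RNAs bound to core proteins guide chemical marks on that precursor: box C/D particles direct methylation of the ribose and box H/ACA particles direct pseudouridylation. A large complex, the small subunit processome, folds and cleaves the part that becomes the small subunit, and a separate series of particles matures the large subunit. After a ribosome has finished a protein, the ATPase ABCE1 splits it into its subunits, so that they can start again. Growing and dividing cells, early blood cell precursors among them, make ribosomes at a high rate.

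All 8 genes were lower in CD38high than in CD38low cells in each of the 3 mice and in the pool. The log2 difference of the fraction means ran from -1.17 for Ddx21 to -1.48 for Nop56. Its median was -1.31, or 2.49-fold lower, with an SD of 0.14 over the 4 medians of single mice and the pool. Over all 23332 probesets the median difference was 0.04, and 40.5% of probesets had a lower mean in CD38high cells. In limma's unpaired fit across all probesets 8 of 8 were called lower at an adjusted p under 0.05, where 6.88% of all probesets were. With the mouse or pool as a block, in the paired fit, it was again 8 of 8, where 9.87% of all probesets were called lower. In 8 of 8 the 4 CD38high arrays lay below the 4 CD38low arrays without overlap, as they did in 9.37% of all probesets. The choice of the genes fixes these 3 counts, and nothing is read from them. With a mouse or the pool left out, the unpaired fit called fewer probesets, both lower and higher, than with all 8 arrays. It called 5 of 8 genes (all but Nop16, Nop58 and Wdr36) and 1.83% of all probesets lower without mouse 1, and 5 of 8 (all but Nop10, Nop58 and Wdr36) and 3.22% without the pool. It called 7 of 8 (all but Nop58) and 4.11% without mouse 3, and 8 of 8 and 5.23% without mouse 2. The paired fit called 8 of 8 whichever mouse was left out, and also without the pool. In these paired fits 1199 to 1597 of all 23332 probesets were called lower. In bulk RNA a lower level in every cell and fewer cells of a high-level type cannot be told apart.

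**Figure D1:**
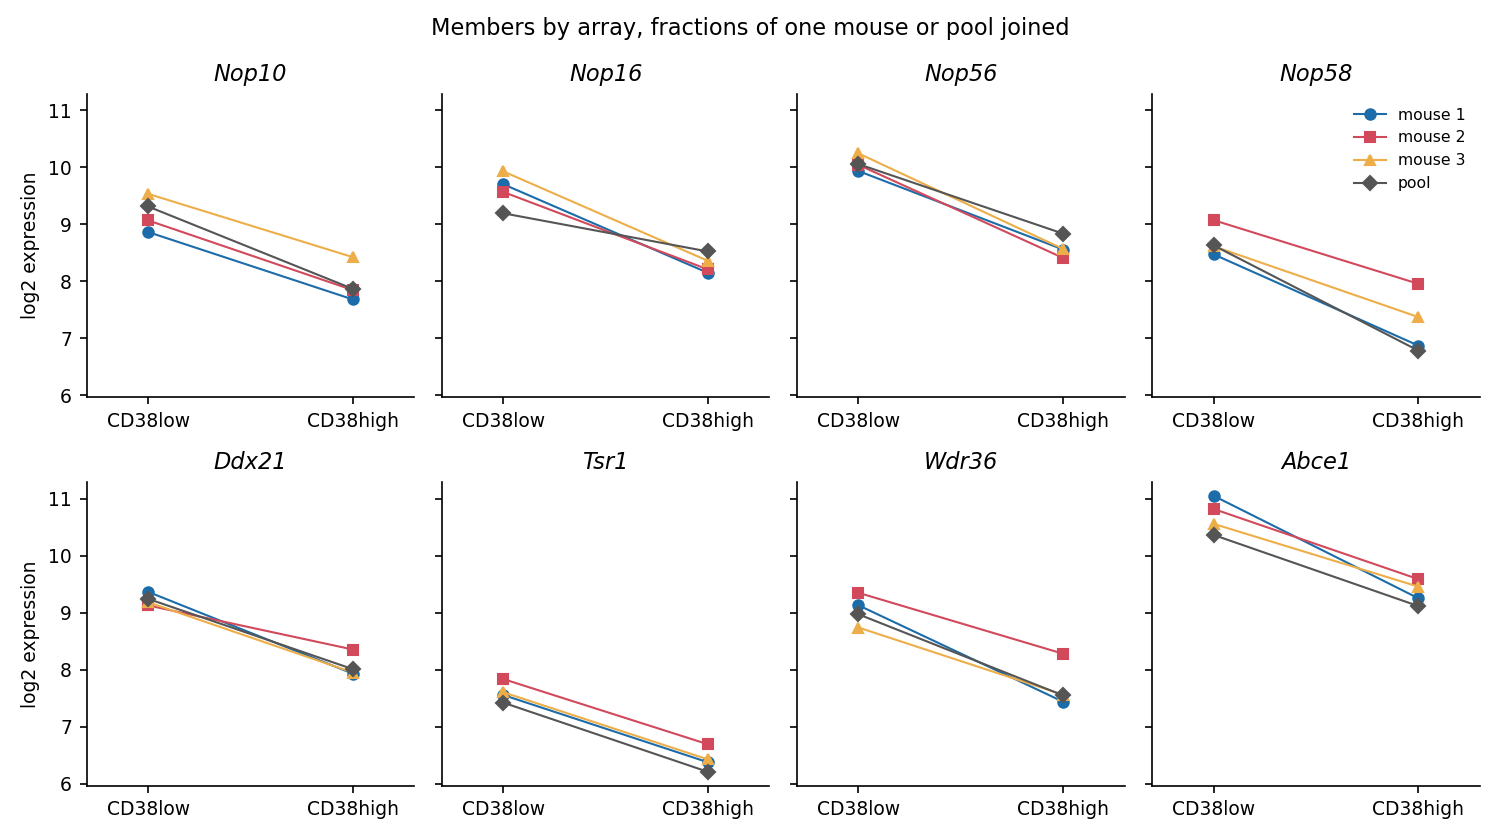
Log2 expression (vertical axis) of the 8 genes in CD38low and CD38high cells, 1 panel per gene, where each line joins the CD38low and the CD38high array of 1 mouse or the pool. Every line runs downwards to CD38high and the fractions do not overlap; the smallest gap between them is 0.44 in Nop10 and the largest is 1.10 in Nop56. Levels of different panels come from different probes and are not comparable.

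The promoters of the 8 genes were read for 4 short motifs, as a description. RefSeq promoter windows (GRCm38.p6, 250 bases before to 50 bases after the start) were found for 7 of the 8 genes, all but Wdr36. The GC box GGGCGG, on either strand, was in 5 of the 7 windows (Ddx21, Nop16, Nop56, Nop58 and Tsr1) and in 35.7% of all 32851 windows of the table. The canonical E-box CACGTG, the motif that MYC binds with its partner MAX, was in 1 of the 7 (Tsr1, where it begins 25 bases into the transcript) and in 7.15% of all windows. The ETS core CCGGAAG was in 1 of the 7 (Tsr1) and in 8.86% of all, and the TATA box TATAAA was in 0 of the 7 and in 13.6% of all. In Tsr1 the GC box and the ETS core share bases at the start. The median GC content was 60.7% in the 7 windows and 52.7% in all. A match describes letters in the window and does not show a factor bound there.

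Counted from the start, the GC box begins at -120 in Nop16, -104 in Nop56 and -110 in Nop58, and at the start itself in Tsr1 (-5) and Ddx21 (4). The 130 bases before the start are shown for the 3 genes with the box wholly upstream, which were chosen after the positions were seen. They run 5′ to 3′ on the gene's strand, with the GC box in capitals (CCGCCC in Nop56, where it lies on the opposite strand).
Nop16 (chr13:54590075-54590204, minus strand): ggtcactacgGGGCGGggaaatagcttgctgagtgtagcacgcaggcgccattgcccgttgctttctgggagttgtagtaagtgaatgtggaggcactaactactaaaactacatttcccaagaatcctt
Nop56 (chr2:130274282-130274411, plus strand): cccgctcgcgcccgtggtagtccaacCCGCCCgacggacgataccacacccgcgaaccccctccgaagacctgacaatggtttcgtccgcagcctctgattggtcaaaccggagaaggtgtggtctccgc
Nop58 (chr1:59684876-59685005, plus strand): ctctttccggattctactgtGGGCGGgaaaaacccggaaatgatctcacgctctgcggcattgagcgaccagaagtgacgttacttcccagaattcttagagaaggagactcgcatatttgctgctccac

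Nop56 and Nop58 are among the core proteins of the box C/D particles, and both hold the guide RNA and the methyltransferase in place. Nop56 (chromosome 2) had log2 expression of 8.56, 8.41, 8.57 and 8.84 in the CD38high arrays of mouse 1, mouse 2, mouse 3 and the pool, and of 9.94, 10.04, 10.24 and 10.06 in the CD38low arrays in the same order. Both fractions were tight, and the gap between them was the widest of the 8 genes, 1.10. The mean was 8.59 ± 0.18 in CD38high and 10.07 ± 0.13 in CD38low cells (SD, n = 4 each), which is 2.78-fold lower.

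Nop58 (chromosome 1) had log2 expression of 6.87, 7.96, 7.37 and 6.79 in the CD38high arrays of mouse 1, mouse 2, mouse 3 and the pool, and of 8.47, 9.07, 8.62 and 8.63 in the CD38low arrays. Mouse 2 was highest in both fractions, and the CD38high arrays spread over 1.17, more than for any other of the 8 genes. The mean was 7.25 ± 0.54 in CD38high and 8.70 ± 0.26 in CD38low cells (SD, n = 4 each), 2.73-fold lower. Over the 3 mice and the pool the fold ran from 2.17 in mouse 2 to 3.59 in the pool. The differences of the fraction means, -1.48 in Nop56 and -1.45 in Nop58, were close, while in CD38high cells mouse 2 had the highest level of Nop58 and the lowest of Nop56.

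Nop10 (chromosome 2) is the smallest protein of the box H/ACA particle, which also takes part in telomerase. Its log2 expression was 7.68, 7.85, 8.42 and 7.87 in the CD38high arrays of mouse 1, mouse 2, mouse 3 and the pool, and 8.86, 9.07, 9.53 and 9.31 in the CD38low arrays. Mouse 3 was highest and mouse 1 lowest in both fractions. The gap between the fractions was the narrowest of the 8 genes, 0.44, yet the difference within a mouse or the pool varied little, at -1.24 ± 0.14 (SD, n = 4), or 2.36-fold lower. Nhp2 and Gar1, which sit with Nop10 in the same particle, were also in the authors' table. Nhp2 was 2.65-fold lower (7.14 ± 0.26 against 8.55 ± 0.33, SD, n = 4 each) and Gar1 2.28-fold lower (7.74 ± 0.23 against 8.93 ± 0.40, SD, n = 4 each). They were the 2 genes in the table from a list of 5 others of this particle and its assembly. Of all probesets 1.60% were in the table as lower. Nop10 itself was chosen from the table and adds nothing to that count. The pseudouridine synthase Dkc1, the fourth protein of the H/ACA core, was not among the named genes and was not analysed here.

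Wdr36 (chromosome 18) encodes a WD-repeat protein of the small subunit processome, the counterpart of yeast Utp21. The probeset with the higher mean had log2 expression of 7.44, 8.28, 7.56 and 7.55 in the CD38high arrays of mouse 1, mouse 2, mouse 3 and the pool, and of 9.13, 9.35, 8.74 and 8.97 in the CD38low arrays. The CD38high array of mouse 2 stood above the other 3 of its fraction. The mean was 7.71 ± 0.39 in CD38high and 9.05 ± 0.26 in CD38low cells (SD, n = 4 each), 2.53-fold lower. The other Wdr36 probeset, assigned to another RefSeq transcript, had log2 expression of 6.78, 7.34, 6.96 and 6.97 against 8.22, 8.32, 8.30 and 8.31. It was 2.43-fold lower, with mouse 2 again highest in CD38high cells, so both probesets gave the same direction and the same highest mouse. They report on 1 gene and are not independent of each other.

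Tsr1 (chromosome 11) is needed for late steps of small subunit maturation, a role known from its yeast counterpart. Its log2 expression was 6.38, 6.69, 6.43 and 6.21 in the CD38high arrays of mouse 1, mouse 2, mouse 3 and the pool, and 7.56, 7.84, 7.61 and 7.42 in the CD38low arrays. The order of the mice and the pool was the same in both fractions, although the mouse or pool term did not pass the F-test given below. The difference was -1.18, -1.14, -1.18 and -1.21 in the 4 sources, or -1.18 ± 0.03 (SD, n = 4), the smallest spread of the 8 genes and 2.27-fold lower.

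Ddx21 (chromosome 10) is a DEAD-box RNA helicase of the nucleolus that acts in transcription by RNA polymerase I and in processing of the precursor. Its log2 expression was 7.93, 8.36, 7.95 and 8.01 in the CD38high arrays of mouse 1, mouse 2, mouse 3 and the pool, and 9.37, 9.13, 9.19 and 9.25 in the CD38low arrays. Mouse 2 was highest in CD38high and lowest in CD38low cells, which made its difference, -0.77, the smallest of the 4. The mean was 8.06 ± 0.20 in CD38high and 9.23 ± 0.10 in CD38low cells (SD, n = 4 each), 2.25-fold lower. Ddx21 had the smallest difference of the 8 genes. The table's rows begin at a 2-fold difference: the lower gene closest to that limit was Wdr74, at 2.00-fold, and probesets just outside it have no gene name here.

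Nop16 (chromosome 13) is a nucleolar protein whose yeast counterpart takes part in assembly of the large subunit. Its log2 expression was 8.15, 8.21, 8.36 and 8.52 in the CD38high arrays of mouse 1, mouse 2, mouse 3 and the pool, and 9.70, 9.57, 9.93 and 9.19 in the CD38low arrays. The pool was highest in CD38high and lowest in CD38low cells. The difference was therefore -0.67 in the pool against -1.56, -1.36 and -1.57 in mice 1, 2 and 3, and its spread, 0.42 (SD, n = 4), was the widest of the 8 genes. The mean was 8.31 ± 0.17 in CD38high and 9.60 ± 0.31 in CD38low cells (SD, n = 4 each), 2.44-fold lower.

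Abce1 (chromosome 8) encodes the ATPase that splits ribosomes after termination. Its log2 expression was 9.26, 9.59, 9.46 and 9.12 in the CD38high arrays of mouse 1, mouse 2, mouse 3 and the pool, and 11.05, 10.82, 10.56 and 10.37 in the CD38low arrays. The difference was largest in mouse 1, at -1.80, and lay between -1.10 and -1.25 in the others. The mean was 9.36 ± 0.21 in CD38high and 10.70 ± 0.30 in CD38low cells (SD, n = 4 each), 2.54-fold lower. Of 15 other genes of translation termination, ribosome recycling and rescue, among them the release factors and Pelo, 0 were among the named genes.

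**Figure D2:**
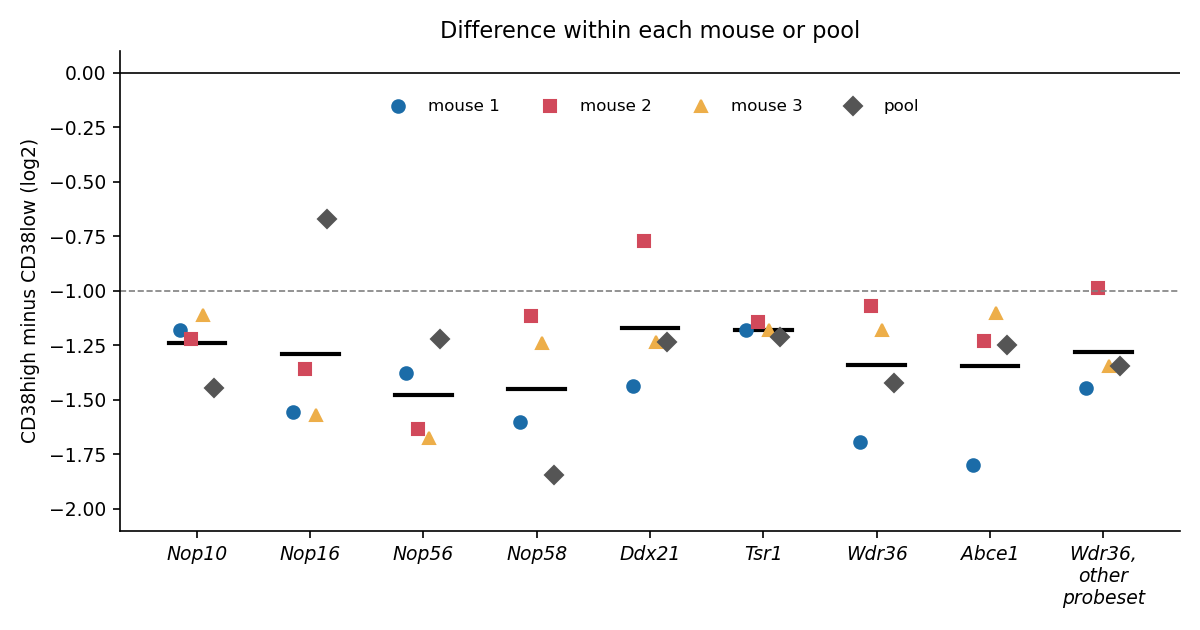
CD38high minus CD38low difference in log2 expression (vertical axis) within each mouse and the pool, for the 8 genes and the other Wdr36 probeset. Black bars are means of the 4 differences and the dashed line marks 2-fold. Tsr1 is tight at -1.21 to -1.14, while the pool in Nop16 (-0.67) and mouse 2 in Ddx21 (-0.77) lie above the 2-fold line. Mouse 2 in the other Wdr36 probeset (-0.99) lies just above that line.

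The genes differed in which animal gave the largest difference. In mouse 1 the median difference of the 8 genes was -1.50, and it was -1.18 in mouse 2, -1.21 in mouse 3 and -1.24 in the pool. The difference was at least 2-fold for 8 of 8 genes in mouse 1 and mouse 3 and for 7 of 8 in mouse 2 and in the pool. Among all probesets 5.06%, 2.44%, 2.25% and 3.22% were at least 2-fold lower in mouse 1, mouse 3, mouse 2 and the pool. The largest difference of a gene came from mouse 1 in 3 genes (Ddx21, Wdr36 and Abce1), from mouse 3 in 2 (Nop16 and Nop56) and from the pool in 3 (Nop10, Nop58 and Tsr1).

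The level of a gene over the animals, taken as the mean of both fractions, is a quantity that the choice on the fraction difference did not use directly, though a choice that favours a small spread within fractions also favours genes with like levels in all animals. A moderated F-test of the mouse or pool term in limma, fitted across all 23332 probesets with the fraction in the model, called 732 probesets at an adjusted p under 0.05 (3.14%). Of the 8 genes 0 were called. Their adjusted p ran from 0.0983 for Nop10 to 0.941 for Ddx21. At an unadjusted p under 0.05 there were 4 of 8 (Nop10, Nop58, Tsr1 and Wdr36), where 21.5% of all probesets were. The number of all probesets called was 0 without mouse 2 and 0 without mouse 3, against 865 without mouse 1 and 649 without the pool.

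As a description, the animal with the highest level was not the same for all genes. Mouse 2 was highest for 5 of 8 genes and for 29.6% of all probesets, and its arrays had the highest medians of their fractions (7.10 in CD38high and 7.07 in CD38low cells). In mouse 2, Nop58 stood 0.54 above its mean over the 8 arrays, Wdr36 0.44, Tsr1 0.25, Abce1 0.18 and Ddx21 0.10. Mouse 3 was highest for Nop10 (0.40) and Nop16 (0.19) and for 32.9% of all probesets, and the pool for Nop56 (0.12) and for 21.9%. Mouse 1 was highest for 0 of the 8 genes, while it was highest for 15.6% of all probesets. With each array centred on its median, a scaling added after seeing the data, mouse 2 was highest for 4 of 8 genes (Nop58, Wdr36, Tsr1 and Ddx21) and for 18.5% of all probesets, mouse 3 for 3 (Nop10, Nop16 and Nop56) and for 51.6%, and mouse 1 for Abce1 and for 15.5%. Nhp2 and Gar1 were highest in mouse 2, at 0.36 and 0.29 above their means, while Nop10 was highest in mouse 3.

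**Figure D3:**
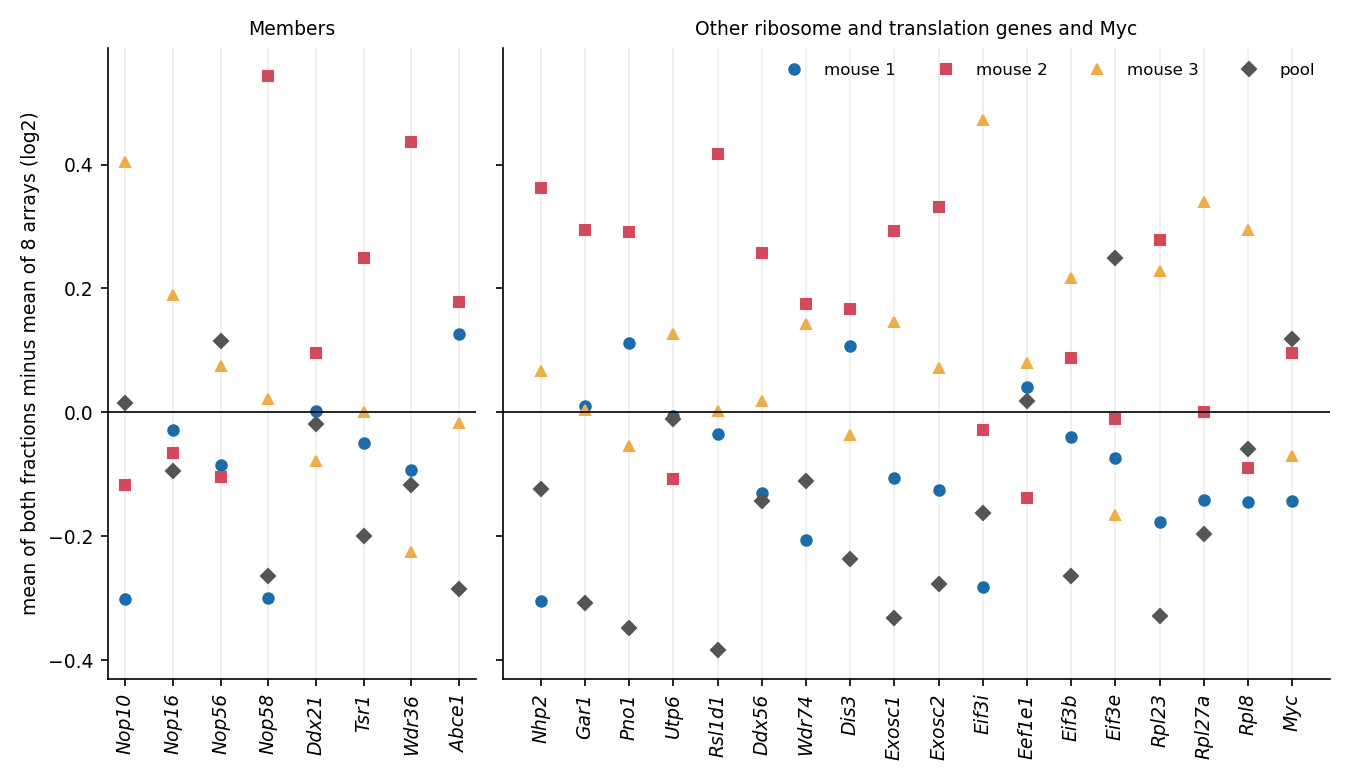
Level in each mouse and the pool at equal fraction, as the mean log2 expression of both fractions minus the mean of all 8 arrays (vertical axis), for the 8 genes (left) and for 17 other ribosome and translation genes and Myc (right). Mouse 2 is highest for 5 of the 8 genes and for 10 of the 18 genes on the right, and for 29.6% of all probesets; with median-centred arrays it is 4 of 8, 6 of 18 and 18.5%, and 0 of either set passed the F-test of the mouse or pool term at an adjusted p under 0.05.

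Around the 8 genes, the authors' table held further genes of ribosome assembly and translation, all of them lower. From 6 lists of other assembly genes, 10 of 153 listed genes were in the table, 10 lower and 0 higher, which is 6.54%. From 3 lists of ribosomal proteins, translation factors and recycling factors it was 7 of 131, 7 lower and 0 higher, which is 5.34%. Over all probesets 374 of 23332, or 1.60%, are in the table as lower, a share of probesets and not of genes. Names come only from this table, so a listed gene without a name is not shown to be unchanged, and the lists and the table are not independent.

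By role, the small subunit list (49 genes) gave Pno1, a late 40S assembly factor (2.63-fold lower), and Utp6 of the processome (2.00-fold lower). The large subunit list (60 genes) gave Rsl1d1, a nucleolar protein (2.80-fold lower), the helicase Ddx56 (2.23-fold lower) and Wdr74 (2.00-fold lower). The list of exosome and exonuclease genes (15 genes), which trim ribosomal RNA precursors, gave Dis3, the catalytic nuclease (2.46-fold lower), and the exosome subunits Exosc1 (2.18-fold lower) and Exosc2 (2.10-fold lower). From the lists of the box C/D particle (8 genes) and of RNA polymerase I (16 genes) 0 genes could be named.

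Among 37 initiation and elongation factors, 4 were in the table: Eif3i (2.55-fold lower), Eif3b (2.36-fold lower) and Eif3e (2.25-fold lower), which are subunits of the scaffold that loads the small subunit, and Eef1e1 (2.37-fold lower), a scaffold protein of the aminoacyl-tRNA synthetase complex. Among 79 cytosolic ribosomal proteins, 3 were in the table: Rpl23 (2.39-fold lower), Rpl27a (2.14-fold lower) and Rpl8 (2.02-fold lower). Ribosomal protein genes have many near-identical pseudogene copies, which these probes may not separate. Myc, whose product drives transcription of many ribosome assembly genes, was the 1 named gene of 11 for MYC and its partners. Its log2 expression was 8.03, 7.90, 7.83 and 7.99 in the CD38high arrays of mouse 1, mouse 2, mouse 3 and the pool, and 8.56, 9.17, 8.91 and 9.13 in the CD38low arrays. It was 2.01-fold lower and the fractions did not overlap. Mouse 1 had the smallest difference in Myc, -0.53, and the largest median difference of the 8 genes. That contrast rests on 1 mouse, and a part of Myc in the lower levels of the 8 genes was not tested.

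**Figure D4:**
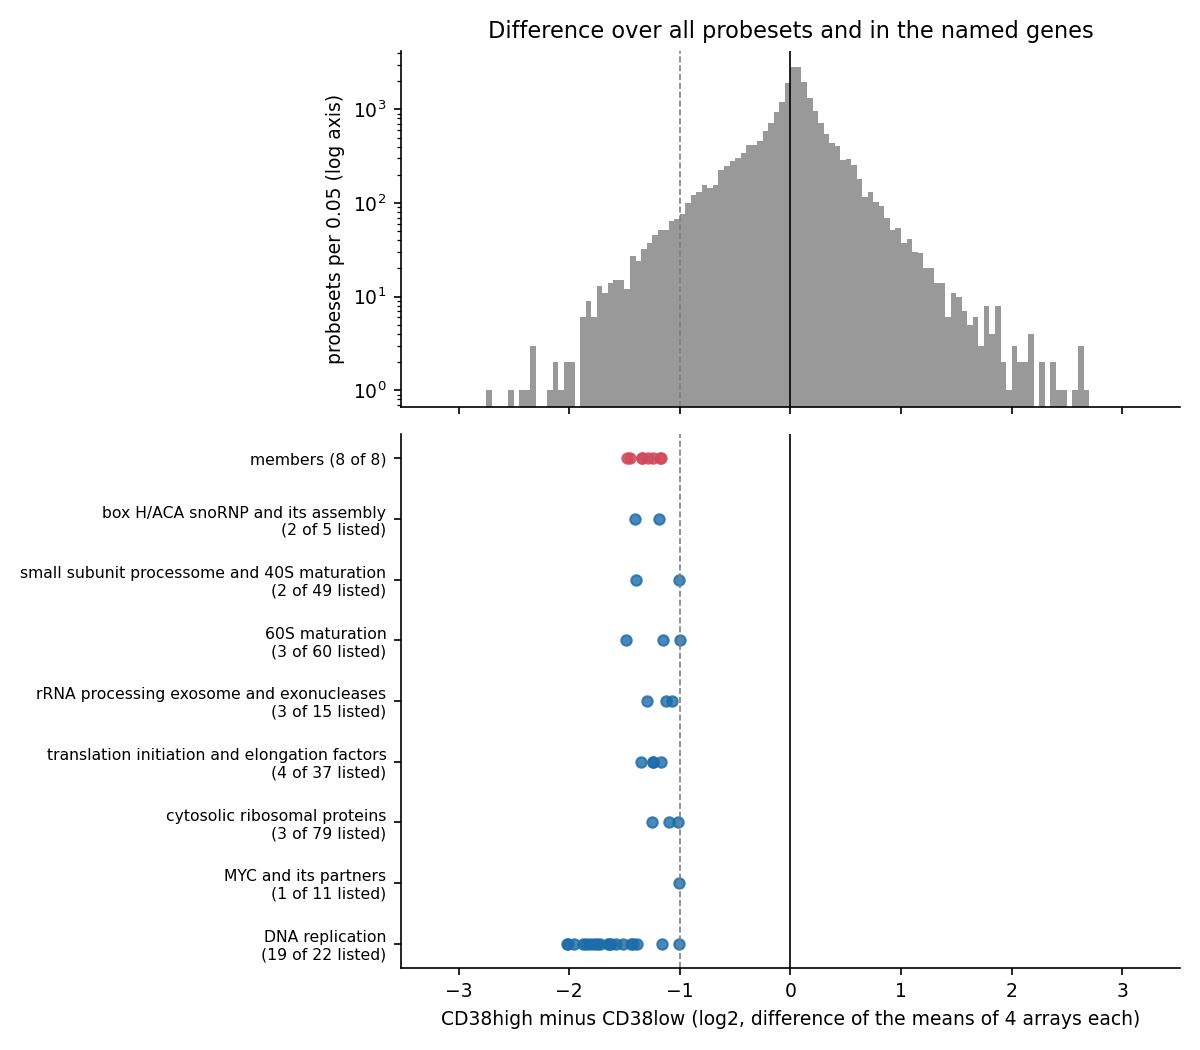
Top, number of probesets (log axis) by CD38high minus CD38low difference in log2 expression. Bottom, the same difference for the 8 genes and for every listed pathway gene that the authors' table names, with dashed lines at 2-fold lower. Cell type markers, which include genes higher in CD38high cells, are not plotted in the bottom panel. The 8 genes lie between -1.48 and -1.17, inside the range of the 19 DNA replication genes (-2.02 to -1.01).

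Of 22 listed genes of DNA replication 19 were in the table (86.4%), all lower, where 1.60% of all probesets were in it as lower. The lists were chosen with earlier results of these data known, so their shares cannot be set against each other. The median log2 difference of the 19 was -1.65, with the largest differences in Pole2, Mcm2, Mcm6 and Mcm3 (4.04-fold to 3.68-fold lower). Among the 362 named genes that were lower, ranked by the size of the difference, the 8 genes stood between rank 86 (Nop56) and rank 236 (Ddx21). The 5 named genes outside the 8 whose row-centred profile over the 8 arrays came closest to the mean profile of the 8 were Mcm10, a replication factor, Mms22l, which acts in repair at replication forks, the kinase Map3k20, the N-terminal acetyltransferase Naa50 and Kat14, of a histone acetyltransferase complex. Their root mean square distance to that profile was 0.0954 to 0.105 log2 units. It was 0.11 for Tsr1, the closest of the 8, and 0.28 for Nop58, the farthest, with a median of 0.26 over the named genes outside the 8. The distance is not scaled, so it depends on the size of the fraction difference, on which all genes of the table were selected. In the 5 nearest genes that difference was -1.29 to -1.20. Each of the 8 is also part of the mean profile it was compared with. Shared regulation was not tested.

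Markers of other cell types and stages moved with the fractions in the same arrays. Of 95 listed markers 16 were in the table, 7 lower and 9 higher. Over all 23332 probesets 374 were in it as lower (1.60%) and 124 as higher. Of 8 genes of granulocyte precursors 5 were in the table, all lower, among them Ctsg (5.26-fold) and Ms4a3 (4.38-fold). The mean log2 expression of the 5 was 10.80 to 11.19 in the CD38high and 13.00 to 13.12 in the CD38low arrays. Of 15 genes of mature neutrophils 6 were in the table, all higher, among them Stfa3 (6.26-fold) and Il1rn (2.91-fold), with a mean of 11.63 to 11.93 in the CD38high and 10.16 to 10.63 in the CD38low arrays. Each of the following markers was the 1 named gene of its list. Nkg7, of 7 genes for NK cells (8.86 to 10.29 against 11.61 to 12.50), and Mgl2, of 8 for dendritic cells (5.66 to 6.34 against 8.22 to 8.89), were lower. Cd79a, of 9 for B cells (7.99 to 9.75 against 6.45 to 7.33), Ccr7, of 9 for T cells (7.58 to 8.08 against 6.30 to 6.95), and Selp, of 6 for platelets (8.38 to 8.75 against 7.05 to 7.65), were higher, each given as the lowest and highest log2 value of the CD38high and of the CD38low arrays. From the erythroid, monocyte and macrophage, eosinophil and mast cell, and stromal lists 0 genes could be named, and array values have no zero that would show a marker to be absent. The part of these cells in the lower levels of the 8 genes was not tested.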

How the data were processed

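Gene expression was measured on Affymetrix GeneChip arrays. The authors deposited log2 expression values per probeset and array, and a table of changed probesets. Per the submitters' processing notes, Affymetrix Power Tools, RMA, PLIER and the build mm9 were used. Not given in the sources used here were which of RMA and PLIER produced the values and whether probesets were filtered. The log2 scale was read from the range of the values, 3.60 to 14.10, and from the authors' difference column, which equals the difference of the fraction means. The deposited normalization was kept, and scan batches could not be examined. The number of arrays limits the precision.

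All 498 table rows matched 1 row of the value table in all 8 values to 5 decimals, and 484 rows have a gene symbol, updated through RefSeq names (476 by transcript accession, 3 by symbol, 4 by synonym, 1 kept as in the file). The 8 genes and the gene lists were chosen with earlier results of these data known. The genes named are the 8, each listed pathway gene in the table (up to 4 per list), up to 2 markers per list, the 5 nearest profiles and Cd38.

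Fractions (from the sample titles) were compared without a block by limma 3.58.1 in R 4.3.3, two-sided, with Benjamini-Hochberg adjustment over all 23332 probesets, as the series design names an unpaired test. Same-numbered arrays come from 1 mouse or pool, per the labels, and their deviations from the fraction means correlated at 0.35 to 0.67, against -0.58 to 0.10 for other arrays of opposite fractions, so the paired fit has the mouse or pool as a block. The functions were tested on simulated data. Profiles, promoters and plots were made with pandas 2.3.3, numpy 2.4.6 and matplotlib 3.10.9 (Python 3.11.15).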

Additional observations from a re-analysis of the deposited data

Results flagged for a closer look

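Over 27 groups of 4 values (the 9 probesets in each fraction and their differences within mice or pool), 1 had a value that stood apart, with a distance to the closest other value that, as a share of the range, exceeded Dixon's limit. Chance gives about 1.35 in 27. It was the CD38high array of mouse 2 for Wdr36, at 8.28 on the log2 scale against 7.44 to 7.56 in the other CD38high arrays. It lay below all 4 CD38low arrays of Wdr36. The other Wdr36 probeset was also highest in mouse 2 among CD38high arrays, at 7.34 against 6.78 to 6.97, without standing apart by the same measure.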

How the results depend on the processing

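The paired fits with a mouse or the pool left out and the median-centred levels over animals were chosen after seeing the data. None of the 8 genes changed sign under any alternative run on single genes. Where arrays were left out this was fixed in advance, since the fractions did not overlap in any of the 8 genes. Leaving aside the replicate block and median centring, which give each gene the same difference or shift all genes alike, 101 of 106 recomputed differences moved by less than the SD of the differences within mice or pool and 5 by more, 4 of them in Tsr1, whose SD is the smallest, and all lay between -1.69 and -1.08. With a mouse or the pool left out, a move by less than the SD of the differences was also fixed in advance, by arithmetic. The genes were selected on this difference, so these counts do not test it. With the replicate block the 1606 lower and 873 higher probesets became 2303 and 1626, and with a random replicate block 2326 and 1514, with 8 of 8 genes called in both. The methods' t-test gave 273 lower and 78 higher probesets and 5 of 8 genes at its own threshold (p under 0.001 and 2-fold, without the permutations), and 1053 lower and 545 higher after Benjamini-Hochberg. In the unpaired fit, leaving out a pair or an array gave 427 to 1483 lower and 113 to 953 higher probesets, 5 to 8 genes called and a median difference of the 8 genes of -1.39 to -1.21. With the replicate block, leaving out a mouse or the pool gave 1199 to 1597 lower and 743 to 942 higher probesets, with 8 of 8 genes called each time. The mouse or pool term, 732 probesets, gave 297 after median centring and 1106 among probesets above the median mean, and 0 to 865 with a mouse or the pool left out; 0 of the 8 genes were called in each of these. The cause of these shifts was not tested, and where arrays were left out their number was also smaller.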
